A study of Rattus norvegicus with 23 samples.

Results

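The unfolded protein response and the integrated stress response were followed here through 37 genes in the hearts of newborn rats, and 34 of these genes were measured, among 14506 genes that carry a symbol of their own on the array. A gene was taken when a probe set is annotated with its symbol alone, and 32 of the 34 were read by 1 probe set. Psat1 and Mthfd2 were read by 2 probe sets each, which were averaged in each heart. Ern1, Edem1 and Sesn2 were not analysed here. The members were grouped by role as 7 sensors and transcription factors, 14 chaperones and folding enzymes, 4 genes of ER-associated degradation and the ER membrane, 2 genes of protein entry and signal peptide removal, and 7 targets of the transcription factor ATF4.

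The endoplasmic reticulum (ER) folds proteins that are to be secreted or placed in membranes. When unfolded proteins build up there, the sensors PERK (Eif2ak3), ATF6 and IRE1 signal to the nucleus. ATF6 and the XBP1 protein, whose mRNA IRE1 splices, raise chaperones and the machinery of degradation. PERK phosphorylates the translation factor eIF2, as do kinases that sense other kinds of stress, and the ATF4 that is then translated raises genes of amino acid synthesis and, through CHOP (Ddit3), genes that end the response.

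Each of the 23 Sprague Dawley hearts was taken whole on postnatal day 1 and read on an array of its own. The dams of the diabetes group (n = 6) ate control diet and received 65 mg/kg streptozotocin, which destroys the insulin-producing cells of the pancreas, on gestational day 14. The dams of the HF diet group (n = 5) ate a high-fat diet from 28 days or more ahead of mating until delivery and received citrate buffer, those of the combination group (n = 5) had both the diet and streptozotocin, and those of the control group (n = 7) had control diet and buffer. Dams given streptozotocin, in the diabetes and combination groups, also received daily insulin, which held their hyperglycemia down only in part. Males and females were pooled in each group, and the sex of each heart is not stated.

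A value here is on the log2 scale and is the distance of a gene from its own median over the 23 hearts, so 1 gene can be compared between hearts but the level of a gene cannot be read. The hearts are whole tissue, so fewer cells of a type and less RNA per cell cannot be told apart. Combination heart 1 had the widest spread of all arrays (SD over probe sets 0.393, with 0.1604 the narrowest). Control heart 1 stood apart for markers of neighbouring organs. Its mean was 4.07 over 5 lung epithelium markers and 3.26 over 5 thymocyte markers, where the other control hearts reached 0.05 and 0.01. The lung mean was also 1.19 in HF diet heart 4 and 0.95 in diabetes heart 3, and at most -0.01 in combination hearts. The labels carry code stems that group combination hearts 1 and 2, combination hearts 4 and 5, and HF diet hearts 3, 4 and 5, and whether a stem stands for a dam is not stated. Hearts of a stem may thus be littermates, and the p-values reflect the spread among these hearts only.

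Promoters were read from RefSeq (rat build GRCr8), 250 bases before to 50 bases after the listed start, to show which members carry the sites that the response is known to use. Of the 30 members with an entry, 24 have a listed start within 250 bases of the start of the annotated gene and are described here. In the other 6 (Asns, Creld2, Psat1, Syvn1, Dnajb9 and Herpud1) the listed start lies further inside the gene, by 630 bases in Creld2, and their windows are not counted. The ER stress element, CCAAT and CCACG separated by 9 bases, was found on either strand in 6 of the 24 windows (Xbp1, Hspa5, Hsp90b1, Dnajc3, Calr and Canx) and in 0.0765% of all 27457 promoters, wherever their listed start lies. The windows of Hspa5, Calr and Canx are shown, since these chaperones share the element, with capitals marking both parts of it, which stands on the reverse strand in Calr. Hspa5 lies at chr3:38452956-38453015 (+ strand), Calr at chr19:40213125-40213184 (+ strand) and Canx at chr10:35158038-35158097 (- strand).
Hspa5: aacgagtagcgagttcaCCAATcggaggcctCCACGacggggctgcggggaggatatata
Calr: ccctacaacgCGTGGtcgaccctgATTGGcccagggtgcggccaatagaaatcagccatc
Canx: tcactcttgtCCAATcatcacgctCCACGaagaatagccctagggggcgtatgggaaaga

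An ATF4 element, searched as TGATG followed by any base and AA on either strand, stood in 2 of the 24 windows (Trib3 and Chac1) and in 3.82% of all promoters. Both are shown with the letters of the element in capitals, as they read from the reverse strand. Trib3 lies at chr3:161275534-161275573 (- strand) and Chac1 at chr3:126795954-126795993 (+ strand).
Trib3: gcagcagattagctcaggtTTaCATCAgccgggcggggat
Chac1: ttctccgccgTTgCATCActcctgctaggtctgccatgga

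**Figure D1:**
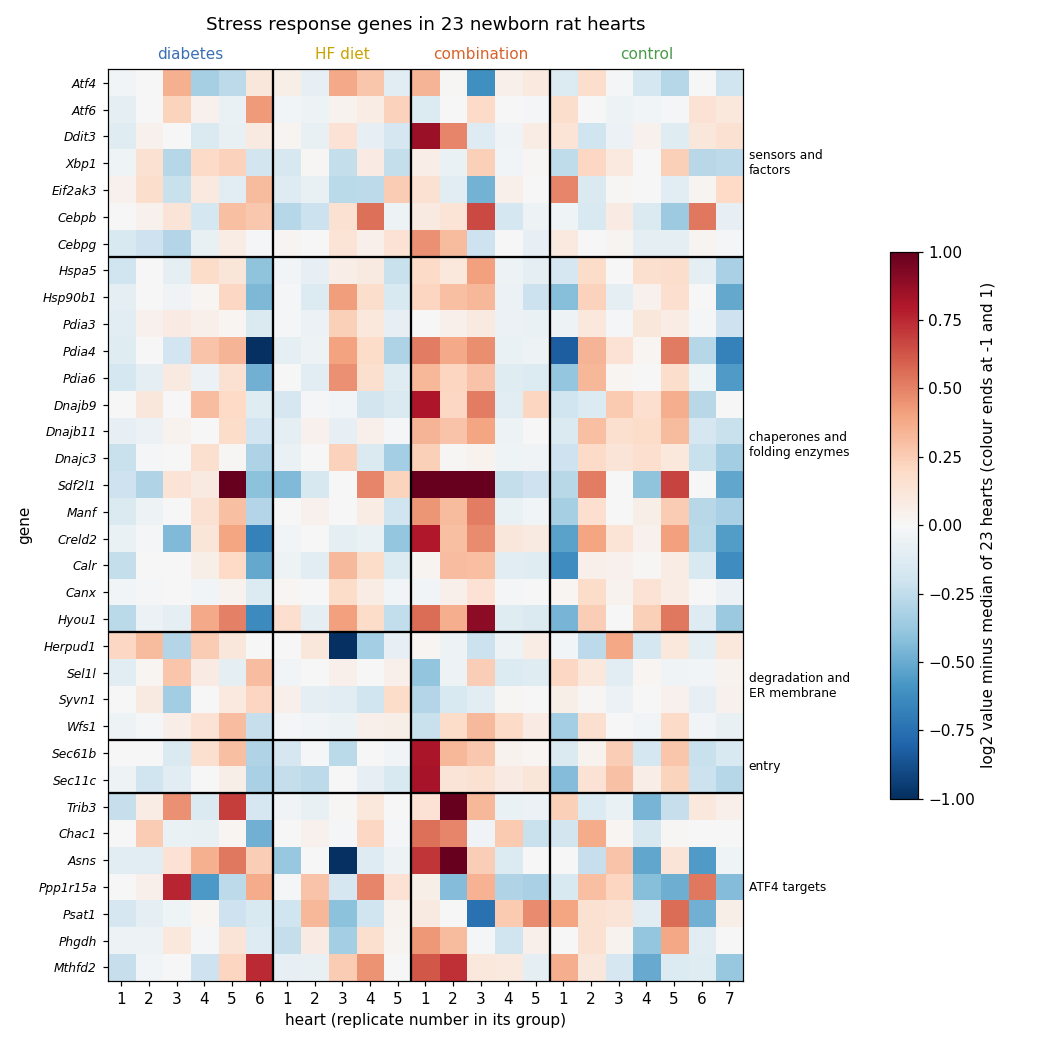
Values of the 34 genes (rows, by role) in the 23 hearts (columns, by group and replicate number), as log2 distance from the median of each gene, with red above and blue below it. Combination hearts 1, 2 and 3 are red for most chaperones, while combination hearts 4 and 5 are near 0 or below it.

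In neither diabetes alone nor HF diet alone did a member pass the threshold against control. Past the threshold, a log2 difference beyond 0.32 up or down (the fold limit of the methods) together with an unadjusted p under 0.05 in limma, were 0 of 34 members in diabetes against control, where 0.229% of all 28366 features tested were higher and 0.0811% lower. In HF diet against control 0 of 34 passed as well, where 0.702% of all features were higher and 0.254% lower. No member had an unadjusted p under 0.05 in either comparison, where 1.6% and 2.69% of all features did, and all had an adjusted p of 1 (Benjamini-Hochberg over all features). The median difference over the 34 members was 0.01 in diabetes and 0.00 in HF diet. The smallest limma p in diabetes belonged to Canx, a membrane-bound chaperone of glycoproteins, at a difference of -0.09 (95% interval -0.20 to 0.02, exact permutation p = 0.0571), and in HF diet to Herpud1, at -0.35 (95% interval -0.73 to 0.03, exact permutation p = 0.177). The largest difference in diabetes was that of the ATF4 target Asns, at 0.31 (95% interval -0.108 to 0.735, exact permutation p = 0.081), just short of the fold limit. Mthfd2 differed by 0.20 in diabetes and 0.23 in HF diet. Intervals for the chaperones reached 0.70 for Sdf2l1, so differences up to that size lie within the error of a gene that varies as much.

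In combination against control, members past the threshold came from 2 of the 5 role groups. Both genes of protein entry and signal peptide removal fell short of the fold limit only. Past the threshold were 5 of 34 members, all higher: Sdf2l1 and Creld2 among the chaperones and Trib3, Asns and Mthfd2 among the ATF4 targets. Of all features 2.11% were higher and 1.23% lower. The adjusted p of the 5 members ran from 0.497 to 0.505 in limma, and 0 members were past an adjusted p of 0.05, against 9 of 34 at an unadjusted p under 0.05, where 9.85% of all features were. Of the 34 members 26 had a positive difference, with a median of 0.14, where 51.2% of all named genes did and their median was 0.00.

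Sdf2l1, a partner of the ER chaperone BiP that holds proteins in solution, had the widest range of all members. It stood at 1.83, 1.03, 1.06, -0.24 and -0.20 in combination hearts 1 to 5, against a lowest value of -0.52, a median of 0.00 and a highest of 0.68 in control hearts. Combination hearts 1, 2 and 3 lay above every control heart, and hearts 4 and 5, which share a code stem, lay within their range. The difference was 0.69 (standard error 0.32, 95% interval 0.04 to 1.35, limma p = 0.0388, adjusted p = 0.499, exact permutation p = 0.096, two-sided). Without combination heart 1 it was 0.41 and without heart 2 it was 0.61, no longer past the threshold in either case nor by the methods' t-test.

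Creld2, a disulfide isomerase-like ER protein, stood at 0.80, 0.30, 0.47, 0.11 and 0.09 in the combination hearts, against -0.56, 0.04 and 0.41 as lowest, median and highest control values. All combination hearts were above 0, and 2 of them were above every control heart. The difference was 0.41 (standard error 0.19, limma p = 0.0384, adjusted p = 0.499, exact permutation p = 0.0859), and 0.30, no longer past the threshold, without combination heart 1. The window of Creld2 also holds an ER stress element, but it was not counted, since its listed start lies further inside the gene. None of the 6 members counted above with the element passed. Their differences were 0.08 (Xbp1), 0.12 (Hspa5), 0.20 (Hsp90b1), 0.07 (Dnajc3), 0.25 (Calr) and -0.03 (Canx).

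Of the 14 chaperones 13 had a positive difference from control, with a median of 0.23, and the low-spread Canx was the exception. Dnajb9, a co-chaperone that restrains the sensor IRE1, and Manf, a secreted ER protein that supports cell survival, had unadjusted p-values under 0.05 in limma (exact permutation p = 0.106 and p = 0.0783) but differences of 0.30 each, short of the fold limit. Pdia4, a disulfide isomerase, had a larger difference of 0.36, which did not pass (exact permutation p = 0.194), and its values ran from -0.82 to 0.52 among control hearts alone. Hspa5, which encodes BiP, the main ER chaperone of the HSP70 family, had a difference of 0.12 (95% interval -0.11 to 0.35, exact permutation p = 0.332). Pdia3, the isomerase that works with calreticulin and calnexin, differed by 0.00 (95% interval -0.14 to 0.15). The remaining chaperones did not pass either. Hyou1, an ER nucleotide exchange factor, differed by 0.30, the calcium-binding chaperone gene Calr by 0.25, Hsp90b1, the HSP90 of the ER, by 0.20, the isomerase gene Pdia6 by 0.18, and the BiP co-chaperone genes Dnajb11 and Dnajc3 by 0.13 and 0.07.

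Among ATF4 targets, Asns, which makes asparagine, stood at 0.72, 1.26, 0.24, -0.14 and 0.00 in combination hearts 1 to 5, against -0.57, -0.04 and 0.28 as lowest, median and highest in control hearts. Hearts 1 and 2 lay above every control heart, and the others did not. The difference was 0.55 (standard error 0.21, limma p = 0.0167, adjusted p = 0.497, exact permutation p = 0.0518). Without combination heart 2 it was 0.34 and no longer past the threshold.

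Trib3, a pseudokinase that dampens ATF4 and CHOP activity, stood at 0.14, 1.35, 0.33, -0.07 and -0.06 in combination hearts, against -0.46, -0.07 and 0.24 as lowest, median and highest control values. Its difference of 0.41 (standard error 0.20, limma p = 0.0466, adjusted p = 0.505, exact permutation p = 0.0833) was 0.16 and no longer past the threshold without combination heart 2, which alone was above 1. Mthfd2, a mitochondrial enzyme of one-carbon metabolism, stood at 0.62, 0.73, 0.11, 0.10 and -0.09 in combination hearts, against -0.50, -0.14 and 0.36 as lowest, median and highest in control hearts. Its difference was 0.41 (standard error 0.17, limma p = 0.0276, adjusted p = 0.497, exact permutation p = 0.0556), and its 2 probe sets gave 0.42 and 0.40. Without combination heart 1 it was 0.33 and without heart 2 it was 0.30, no longer past the threshold. The serine synthesis genes Psat1 and Phgdh differed by -0.08 and 0.10, the glutathione-degrading enzyme Chac1 by 0.20, and Ppp1r15a (GADD34), which directs the removal of phosphate from eIF2, by -0.06, and none of these 4 passed.

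The sensors and transcription factors held 0 of 7 members past the threshold against control. The nearest was Ddit3, at 0.86, 0.49, -0.13, -0.03 and 0.07 in combination hearts, against -0.20, 0.04 and 0.15 as lowest, median and highest control values. Hearts 1 and 2 lay above every control heart. Its difference was 0.24 (exact permutation p = 0.184, limma adjusted p = 0.51), and -0.04 without those 2 hearts. Atf4 mRNA differed by 0.07, Xbp1 by 0.08 and Eif2ak3 by -0.14. Cebpb and Cebpg, which encode partners of ATF4 in binding DNA, differed by 0.16 and 0.11, and Atf6 by -0.04.

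The ER-associated degradation genes did not share the sign of the chaperones. Sel1l, Syvn1 and Herpud1, which build and hold together the ubiquitin ligase complex of the ER membrane, differed from control by -0.12, -0.11 and -0.05, and the ER membrane protein gene Wfs1 by 0.13, with 0 of 4 past the threshold. The smallest p was that of Syvn1 (limma p = 0.189, exact permutation p = 0.0455). Sec61b, a subunit of the channel through which proteins enter the ER, differed by 0.31 (exact permutation p = 0.0568), and Sec11c, a catalytic subunit of the signal peptidase, by 0.29 (exact permutation p = 0.119), both with an unadjusted p under 0.05 in limma and short of the fold limit.

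**Figure D2:**
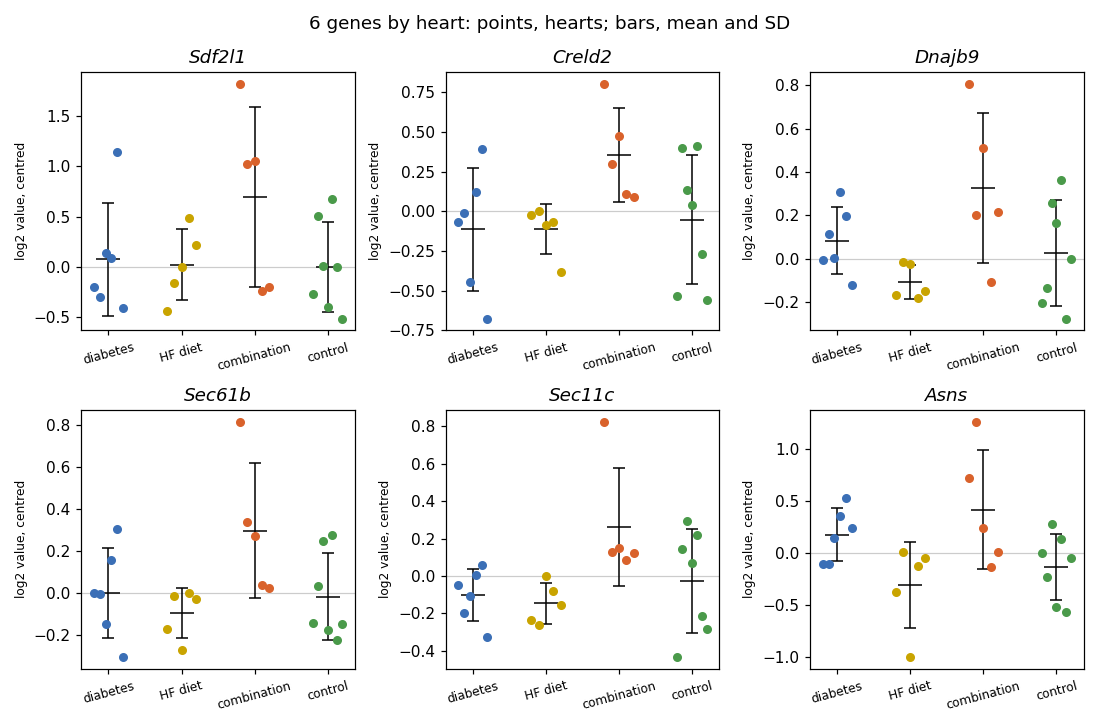
Log2 values of Sdf2l1, Creld2, Dnajb9, Sec61b, Sec11c and Asns in each heart (points) with group means and SD (bars), by exposure group. For Sec61b and Sec11c all 5 combination hearts lie above all 5 HF diet hearts, while they overlap the 7 control hearts.

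Members passed most often, beside the comparison with control, in combination against HF diet, which asks what diabetes adds to the diet. There 5 of 34 were past the threshold, all higher (Dnajb9, Creld2, Sec61b, Sec11c and Asns), where 2.83% of all features were higher and 2.92% lower. Adjusted p-values of the 5 were 0.369 and 0.370 in limma. For 3 of the 34, Creld2, Sec61b and Sec11c, all 5 combination hearts lay above all 5 HF diet hearts, as in 0.673% of all features. The exact permutation p was 0.00794 each, two-sided, the smallest that 5 against 5 allows, with 34 members compared and no adjustment. That test takes hearts as independent, while both groups hold hearts that share a code stem.

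Sec11c stood at 0.82, 0.13, 0.15, 0.08 and 0.12 in combination hearts, against -0.24, -0.26, 0.00, -0.08 and -0.15 in HF diet hearts. Apart from combination heart 1, the hearts of each group lay close together. The difference was 0.41 (standard error 0.14, limma adjusted p = 0.369), and 0.27 without combination heart 1, short of the fold limit.

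Sec61b stood at 0.81, 0.34, 0.27, 0.04 and 0.02 in combination hearts, against -0.17, -0.01, -0.27, 0.00 and -0.03 in HF diet hearts. Its difference was 0.39 (standard error 0.14, limma adjusted p = 0.369), and 0.26 without combination heart 1, also short of it. Creld2, whose combination values are given above, stood at -0.02, 0.00, -0.09, -0.06 and -0.38 in HF diet hearts, a difference of 0.47 (standard error 0.20, limma adjusted p = 0.37). The groups did not overlap, but the gap was narrow, with 0.09 as the lowest combination value and 0.00 as the highest in HF diet. Without combination heart 1 the difference of Creld2 was 0.354, no longer past the threshold.

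Dnajb9 stood at 0.81, 0.20, 0.51, -0.11 and 0.21 in combination hearts, against -0.17, -0.02, -0.03, -0.18 and -0.15 in HF diet hearts. All but combination heart 4 lay above every HF diet heart. The difference was 0.43 (standard error 0.14, limma p = 0.00474, exact permutation p = 0.0238), and 0.313 without combination heart 1, short of the fold limit.

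Asns stood at -0.38, 0.01, -1.002, -0.13 and -0.05 in HF diet hearts, so HF diet heart 3 was far below the others. The difference of combination from HF diet was 0.73 (standard error 0.23, limma p = 0.0046, exact permutation p = 0.0556), the largest of the 34 in this comparison. The same heart held the lowest Herpud1 value, -1.43, with 0.00, 0.11, -0.34 and -0.08 in the other HF diet hearts.

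In combination against diabetes, which asks what the diet adds, 2 of 34 members were past the threshold, both higher, where 1.65% of all features were higher and 1.4% lower. Creld2 had a difference of 0.47 (standard error 0.19, limma adjusted p = 0.528, exact permutation p = 0.0541), with -0.68, -0.04 and 0.39 as lowest, median and highest in diabetes hearts. Sec11c had a difference of 0.36 (standard error 0.13, limma p = 0.0124, adjusted p = 0.528), and all 5 combination hearts lay above all 6 diabetes hearts, whose values ran from -0.32 to 0.06 with a median of -0.08 (exact permutation p = 0.00216, the smallest that 5 against 6 allows). This held for 1 of the 34 members and for 0.257% of all features. Combination hearts that share a code stem were taken as independent in the permutation here too. All 14 chaperones had a positive difference, with a median of 0.21, and 1 of the 14 passed. The 3 comparisons of the combination group share its 5 hearts, so their counts are not independent of each other.

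**Figure D3:**
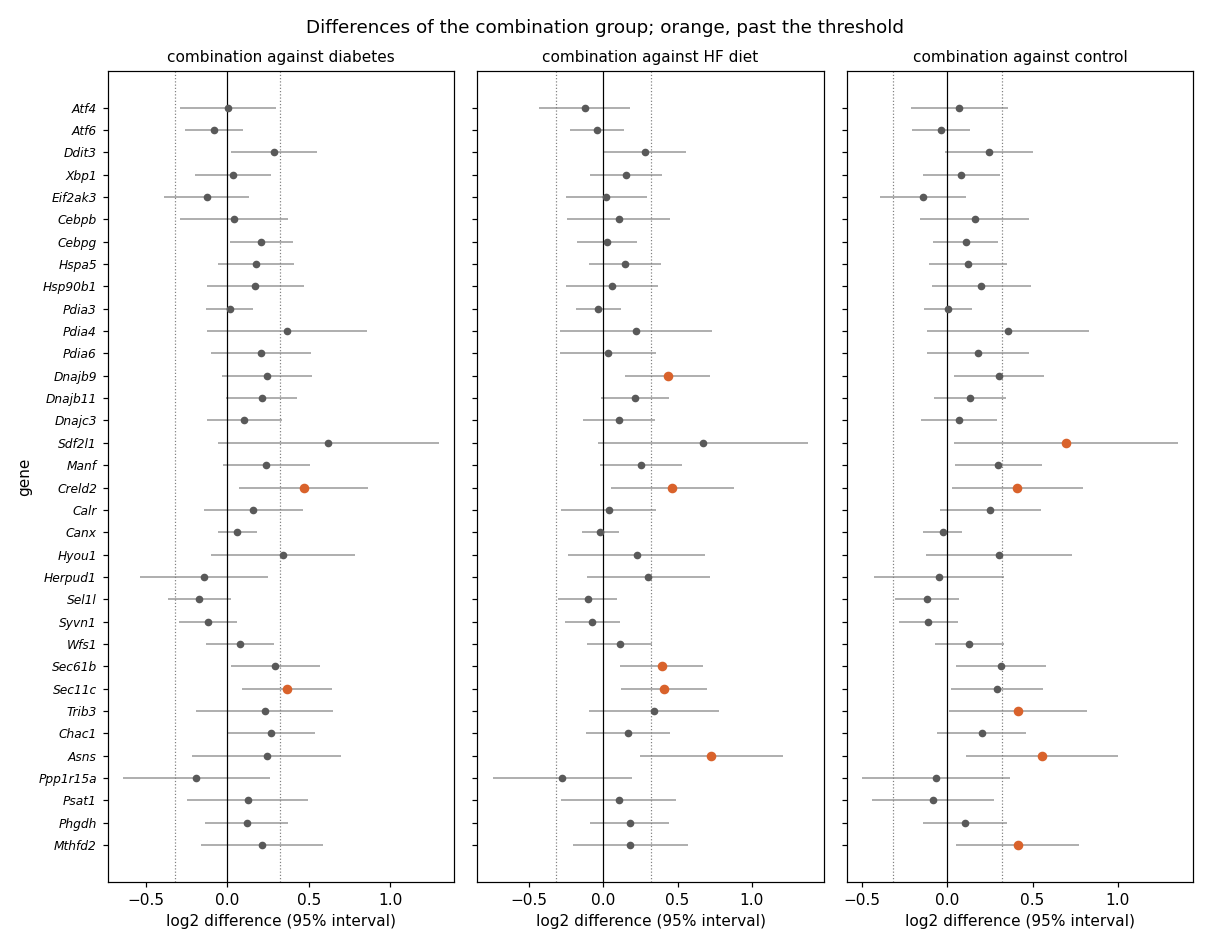
Log2 differences of the combination group from the diabetes, HF diet and control groups for the 34 genes, with 95% intervals, where dotted lines mark the fold limit, 0.32 on the log2 scale, and orange marks genes past the threshold. Most chaperone points lie right of 0 in all 3 panels, and most of their intervals reach 0.

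Diabetes against HF diet set the single exposures side by side, with 2 of 34 past the threshold, both higher (Herpud1 and Asns), where 0.229% of all features were higher and 0.208% lower. Herpud1 stood at 0.21, 0.32, -0.29, 0.26, 0.11 and 0.00 in diabetes hearts, and its difference was 0.45 (standard error 0.19, limma p = 0.0278, adjusted p = 1, exact permutation p = 0.0801). Without HF diet heart 3 it was 0.18 and not past the threshold. Asns ran from -0.11 to 0.53 in diabetes hearts with a median of 0.20, and its difference of 0.49 (standard error 0.22, limma p = 0.0385, adjusted p = 1, exact permutation p = 0.0281) was 0.31 without the same heart, and not past the threshold.

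The interaction term is the combination minus the sum of both single differences, and 1 of 34 members was past the threshold, Sec11c, at 0.48 (standard error 0.19, limma adjusted p = 0.675). Of all features 1.77% were past it upward and 2.61% downward. Sec11c differed from control by -0.07 in diabetes, by -0.12 in HF diet and by 0.29 in combination hearts. The terms of Sec61b (0.37), Dnajb9 (0.37), Dnajb11 (0.29) and Creld2 (0.53) did not pass, each at a limma adjusted p of 0.675.

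Heart by heart, the chaperones tended to lie on the same side of 0. In combination hearts 1, 2 and 3, 12, 14 and 14 of the 14 chaperones lay above 0, with medians of 0.33, 0.29 and 0.40, and in hearts 4 and 5, 1 and 2 did, with medians of -0.06 each. In diabetes hearts the count ran from 0 to 14 and the medians from -0.41 to 0.20, and in HF diet hearts from 1 to 11 and from -0.15 to 0.21. Control hearts were spread as widely: all 14 were above 0 in control heart 5 (median 0.22) and 13 in control heart 2 (0.21), while 1, 0 and 0 were in control hearts 1, 6 and 7 (medians -0.30, -0.14 and -0.36).

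The ATF4 targets were highest in combination hearts 1 and 2, with medians of 0.44 and 0.49, and those of hearts 3, 4 and 5 were 0.11, -0.07 and -0.06. The highest median was 0.13 in diabetes, 0.16 in HF diet and 0.15 in control hearts. Combination heart 3 was thus high for chaperones (0.40) and not for ATF4 targets, and it held the lowest Atf4 value of all hearts, -0.61.

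**Figure D4:**
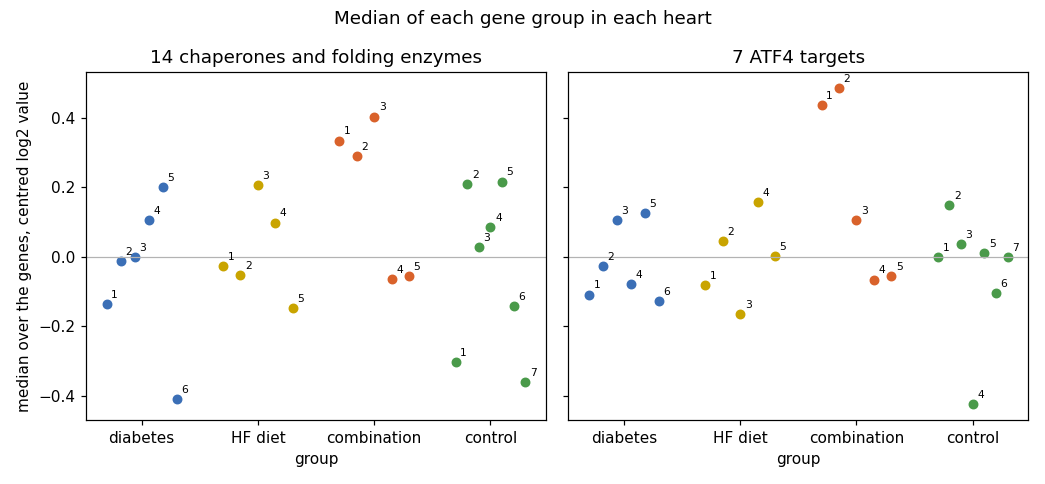
Median centred log2 value of the 14 chaperones and folding enzymes (left) and of the 7 ATF4 targets (right) in each heart, by group, with replicate numbers beside the points. Combination hearts 1, 2 and 3 lie above all other hearts for chaperones and hearts 1 and 2 for ATF4 targets, while control hearts 1 and 7 and diabetes heart 6 are lowest for chaperones.

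Members differed in how much they varied within groups. The residual SD was 0.59 for Sdf2l1, 0.42 for Pdia4, 0.39 for Asns and 0.38 for Hyou1 and Ppp1r15a, against a median of 0.17 over all named genes. Canx (0.08) and Pdia3 (0.10) varied least. The 95% interval of the combination difference from control was -0.14 to 0.09 for Canx, and 0.04 to 1.35 for Sdf2l1.

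The counts turned on a few hearts. Without combination hearts 1 and 2, which share a stem, 0 members were past the threshold against control, diabetes and HF diet. Of all features 0.814%, 0.631% and 0.987% were (both directions). In that setting 12 of 14 chaperones had a positive difference from control (median 0.14). Among the combination hearts left, heart 3 had 14 of 14 chaperones above 0, and hearts 4 and 5 had 1 and 2. Without combination hearts 4 and 5, 14 members passed against control, 14 against diabetes and 11 against HF diet, and the share of all features was 12.3%, 12.6% and 15.6%. Leaving out combination heart 1 alone gave 2, 0 and 1, with 1.21%, 0.966% and 1.99% of all features, and leaving out control heart 1, the heart with high lung and thymus markers, gave 3 against control, with 2.04% of all features.

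Other genes of the pathway were read from 8 lists of 148 genes, of which 138 were measured. Against control 8 were past the threshold in combination hearts, all higher, against 2.11% of all features higher and 1.23% lower, and 108 of 138 had a positive difference, with a median of 0.13. The 12 cytosolic heat shock genes, chaperones outside the ER, all had positive differences (median 0.30), and 3 of the 12 passed. Their mean was 0.835, 0.151, 0.198, -0.076 and -0.005 in combination hearts 1 to 5, so heart 1 weighed most. The highest mean was 0.123 in control and 0.207 in diabetes hearts. Hsph1, an HSP110 nucleotide exchange factor, stood at 2.60, 0.55, 0.59, -0.22 and -0.24 in combination hearts, so its difference of 0.76 (standard error 0.33, limma adjusted p = 0.499) leaned on heart 1. Dnaja4 (0.42) and Hspb8 (0.36) were the others. Yars1, the tyrosyl-tRNA synthetase (0.39), and Hspe1, the mitochondrial HSP10 (0.37), were also higher.

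Among the 35 other ATF4 targets and tRNA synthetases 29 had a positive difference from control (median 0.18) and 2 of the 35 passed. Of the 20 translocon and signal peptidase genes 18 were positive (median 0.09) and 0 passed, and of the 13 genes of ER-associated degradation 6 were positive (median -0.03) and 0 passed, as for the members of that role. Against HF diet 11 of 138 were higher and 2 lower in combination hearts, against 2.83% of all features higher and 2.92% lower, with Grpel1 (0.41), Selenom (0.41), Fkbp11 (0.39), Stc2 (0.39) and Gdf15 (0.36) as the largest. Against diabetes 9 of 138 were higher and 1 lower, against 1.65% and 1.4% of all features, led by Hsph1 (0.74) and Dnaja1 (0.49). Gdf15, a stress-induced cytokine, had an interaction term of 0.54 (standard error 0.17, limma adjusted p = 0.675), since it differed from control by -0.17 in diabetes, by -0.21 in HF diet and by 0.16 in combination hearts.

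Several lists of cell type markers differed on average between combination and control hearts, while the ranges of the hearts overlapped. The median difference from control in combination hearts was -0.05 over 10 cardiomyocyte markers, 9 of them below 0, -0.17 over 8 fibroblast markers, 7 of them below 0, and 0.47 over 4 erythroid markers, all of them above 0. The erythroid median was 0.58 in diabetes against control, where 2 of the 4 passed, and 1 of the 4 passed in combination hearts. Over 6 endothelial markers the median in combination against control was -0.07, with 5 of them below 0. Over 5 lung epithelium markers it was -0.71 and over 5 thymocyte markers -0.41, with all 10 below 0 and 1 of them (Cd4) past the threshold. Both lists were highest in control heart 1, and these differences leaned on it. The median heart stood at -0.035 in combination and -0.028 in control for lung epithelium, and at 0.018 and -0.018 for thymocytes. Over 6 macrophage markers the median difference was -0.09, with 2 above 0, and over 5 smooth muscle and pericyte markers 0.05, with 3 above 0. The mean of the fibroblast markers ran from -0.32 to -0.03 in combination hearts and from -0.13 to 0.15 in control hearts, and the mean of the erythroid markers from -0.56 to 1.38 in combination hearts and from -1.17 to 0.37 in control hearts. The 6 markers of plasma cells and pancreas, cells rich in ER chaperones, had a median difference of 0.04. All 6 were above 0, and the largest difference was 0.316. Whether such shifts play a part in the differences of the members was not tested.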

How the data were processed

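RNA of 23 newborn rat hearts was hybridized to Affymetrix Rat Gene 1.0 ST arrays. The authors read probe intensities with the GeneChip software, normalized and quality filtered them in GeneSpring GX, and deposited log2 values for 29170 probe sets, centred on the median of each over the arrays. How GeneSpring GX normalized the arrays, and the filter's limits, are not stated. Because centring removes levels, dim probe sets could not be filtered.

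Of the probe sets 15310 carry 1 symbol, 323 several and 13537 none. Probe sets of 1 symbol were averaged per heart, which left 28366 features with the unnamed ones. Of the 15310, 15279 matched RefSeq by Entrez identifier. In limma 3.58.1 (R 4.3.3), lmFit and eBayes estimated 1 mean for each group over all 23 hearts, and 6 pairwise differences and the interaction were taken from it. The threshold was the fold limit of the methods (0.32 on the log2 scale) with an unadjusted p under 0.05, with Benjamini-Hochberg adjustment over 28366 features beside it. Exact permutation p-values, two-sided, enumerate all splits of 2 groups. Named with full statistics were the members past the threshold and otherwise the member of smallest p in a role group, and from the wider lists at most the 5 largest past it. The members and lists were chosen with earlier results of these data known. Alternatives were the methods' t-test, fewer groups, replicate and code stem blocks, quantile normalization, array weights, other feature sets, an adjusted threshold and leaving out hearts. The labels do not state that replicate numbers pair the hearts. With group means removed, same-numbered hearts of different groups correlated at -0.422 to 0.558 (median -0.083). Hearts of different number and group correlated at -0.526 to 0.407 (median -0.01). Hearts of a shared code stem had a median of -0.149, so such correlations cannot exclude a pairing. Promoters came from RefSeq (GRCr8). The number of arrays limits the precision.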

Additional observations from a re-analysis of the deposited data

Results flagged for a closer look

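In 136 pairs of a member and a group, the highest or lowest heart was set against the others by Dixon's criterion, and 7 pairs stood out, about the share that chance gives (1 in 20). Single hearts lay far above the rest of their group for Sec11c (combination heart 1, 0.82), Trib3 (combination heart 2, 1.35), Sdf2l1 (diabetes heart 5, 1.14) and Chac1 (HF diet heart 4, 0.20, and control heart 2, 0.37). HF diet heart 5 lay far below the others of its group for Manf (-0.20) and Creld2 (-0.38). Of the members that passed in a comparison, the difference of Trib3 from control passed in 15 of 35 alternatives and that of Sec11c from HF diet in 33 of 35. These alternatives include leaving out a heart of a group not compared, which cannot change the difference. The 2 losses of Sec11c came without combination heart 1 (0.267) and without combination hearts 1 and 2 (0.265).

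Sec11c had an interaction term of 0.48 (limma adjusted p = 0.675), past the unadjusted threshold as 1 of 34 members, where 1.77% of all features were past it upward and 2.61% downward. In combination hearts 2 to 5 its values were 0.13, 0.15, 0.08 and 0.12, and the term was 0.34, no longer past the threshold, without the 2 combination hearts of the first shared stem.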

How the results depend on the processing

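The count of members past the threshold in combination against control, 5, became 0 by the methods' t-test, 2 with only the groups compared, 2 with a replicate block, 2 after quantile normalization, 1 with array weights and 0 at an adjusted p under 0.05, and ran from 2 to 9 when 1 heart was left out. With code stems averaged Creld2 and Mthfd2 lost the call, and with the stem as a random block Trib3 did. Against diabetes, the count of 2 became 1 by the t-test and 0 with a replicate block, quantile normalization, array weights or adjustment (0 to 6 leaving out 1 heart). Against HF diet, 5 became 3 after quantile normalization, 3 with array weights and 0 with adjustment (1 to 8), while Asns lost the call by the t-test and Creld2 with code stems averaged. In diabetes against HF diet, 2 became 0 by the t-test, 1 with only the groups compared, 0 with code stems averaged or as a random block, 1 with array weights and 0 with adjustment (0 to 2). The interaction count of 1 became 3 with a replicate block, 2 with named features only and 0 with adjustment (1 to 6). HF diet against control ran from 0 to 1. Whether replicate numbers pair these hearts is not stated. For these settings the share of all features is given above only for leaving out combination heart 1 or control heart 1. Whether members lost or gained calls more than other features did cannot be read from the other counts.

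Leaving out all hearts of a shared stem was added after seeing the data. Without combination hearts 1 and 2 the counts against control, diabetes and HF diet and of the interaction were 0. The share of all features in those 3 comparisons was 0.814%, 0.631% and 0.987%. Without combination hearts 4 and 5 the counts were 14, 14, 11 and 9, and the 3 shares were 12.3%, 12.6% and 15.6%. Without HF diet hearts 3, 4 and 5 the counts were 3 against control and 3 against HF diet, and 0 in diabetes against HF diet. The share of all features is not given for the interaction or without the HF diet hearts, so those counts cannot be set against it. Signs reversed for Herpud1 without the 3 HF diet hearts (0.051 in HF diet against control and -0.10 in combination against HF diet) and for Ddit3 without combination hearts 1 and 2 (-0.04 against control and 0.00 against HF diet, where the value is -0.002). For the members given with full statistics, past the threshold or not, leaving out 1 heart left status and sign unchanged in 842 cases. A call was lost in 49 cases and gained in 29. Under other settings status and sign were unchanged in 396 cases, with a call lost in 62 and gained in 8. The unchanged cases include members that passed neither in the main fit nor in the alternative, so they are not counts of calls kept. The causes were not tested.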
